A study of Mus musculus with 48 samples.

Results

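The comparison of TCDD at 1 µg/kg with vehicle was carried by 6 of the 48 arrays in the series, chosen by the dose in their labels. They stand for 3 of 24 animal pairs. TCDD (a persistent dioxin) or sesame oil alone was given by gavage to female C57BL/6 mice, every 4 days for 28 days by the schedule taken here, although 1 label also calls the gavage daily. RNA of the jejunal epithelium, the lining of the middle small intestine, was hybridised to 2-colour Agilent arrays, each holding 1 treated and 1 vehicle animal, and every pair has a second array with exchanged dyes. Treated animals came from 8 doses between 0.01 and 30 µg/kg, and the same 3 vehicle animals served every dose, so pairs 1, 2 and 3 at 1 µg/kg used the same vehicle animals as pairs 1, 2 and 3 at any other dose. No genetic change was named for either group. Values are log2 ratios of treated over vehicle, centred on the median of each array and averaged over the 2 dyes, with n = 3 pairs throughout.

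TCDD acts through the aryl hydrocarbon receptor (AHR), a ligand-activated transcription factor that pairs with ARNT in the nucleus and binds short sequences with the core GCGTG. Its direct targets, the AHR battery, include the cytochrome P450 gene Cyp1a1, which metabolises planar aromatic compounds, and the feedback genes Ahrr and Tiparp, whose products restrain the receptor. In the intestine AHR is also known for roles in epithelial renewal and in the lymphocytes that lie within and beneath the epithelium. In bulk RNA, fewer cells of a type and less RNA per cell cannot be told apart.

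The 6 arrays held 30141 to 32868 values each, and 14983 genes could be tested. Array medians before centring lay between 0.04 and 0.08. The 2 arrays of pair 1 correlated at 0.48 across genes, those of pair 2 at 0.05 and those of pair 3 at -0.05. Pair 1 also had the widest spread of genes, with an SD of 0.27 against 0.16 in pair 2 and 0.17 in pair 3. These correlations are over genes, which are not replicates, and arrays of the same dye orientation share dye effects that cancel in the mean of a pair. The files give ratios and no levels, so the labelled tissue could not be checked by the abundance of its markers. Among brush border genes, 4 of 18 (Sis, Lct, Anpep and Vil1) were held at a value that 200 or more probes of an array share and were not measured.

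No gene passed the test at 1 µg/kg. Of 14983 genes, 0 (0%) had an adjusted p under 0.05 in limma, and 759 (5.07%) had an unadjusted p under 0.05, 294 of them above vehicle (1.96%) and 465 below (3.1%). That split depended on centring: with arrays left uncentred, when the median of all genes was 0.06, 1198 genes were above and 161 below, and after quantile normalization 1263 and 176. A mean change of 1.5-fold or more was reached by 55 genes. The number of genes with 1 sign in all 3 pairs was 2052 above (13.7%) and 2107 below (14.1%). Means lay below 0 for 7451 of the 14983 genes.

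Ccl20, Ubd and Zbp1 were among the 10 genes below vehicle named for the smallest p. Ccl20, the chemokine that draws CCR6-bearing lymphocytes and dendritic cells to the intestinal epithelium, had log2 ratios of -1.35, -1.11 and -0.96 in pairs 1, 2 and 3. All 6 of its arrays were below 0, from -0.94 to -1.42. Its mean of -1.14 ± 0.20 (SD, n = 3) had the smallest p of all genes (limma adjusted p = 0.52). Ubd, which encodes the ubiquitin-like modifier FAT10 that interferon and TNF induce, had ratios of -1.70, -1.75 and -0.88, with pair 3 the least low. Its mean was -1.44 ± 0.49 (adjusted p = 0.84). Zbp1, a sensor of Z-form nucleic acids that interferon induces, had ratios of -0.55, -0.64 and -0.46, which lie close together, and a mean of -0.55 ± 0.09 (adjusted p = 0.84).

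The other 7 genes named for small p below vehicle had means nearer to 0 than Ccl20 and Ubd. Mcm3, a subunit of the helicase that opens DNA at replication origins, had ratios of -0.42, -0.79 and -0.56. Another probe of Mcm3, left out for missing values, read -0.08 and -0.26 in pairs 1 and 2. Cks1b, a cofactor of cyclin-dependent kinases, had ratios of -0.40, -0.51 and -0.44, and Rrm1, the large subunit of ribonucleotide reductase, had -0.35, -0.31 and -0.50. Every array of these 3 genes was below 0. H2-Aa, an MHC class II chain, had pair ratios of -0.46, -0.49 and -0.38, although the Cy5 arrays (those that carry the treated animal in Cy5) read -0.75 to -0.63 and the Cy3 arrays -0.26 to -0.12. Tnfrsf17, the BCMA receptor of plasma cells, had ratios of -0.38, -0.46 and -0.35. Fcrl1, a B cell surface receptor, had -0.34, -0.37 and -0.41, with 1 array above 0 at 0.12. These ratios average 2 probes that differ, at -0.34, -0.68 and -0.58 and at -0.33, -0.06 and -0.25. Hyou1, a chaperone of the endoplasmic reticulum, had -0.48, -0.28 and -0.50. Adjusted p was 0.84 for each of these 7 genes.

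**Figure D1:**
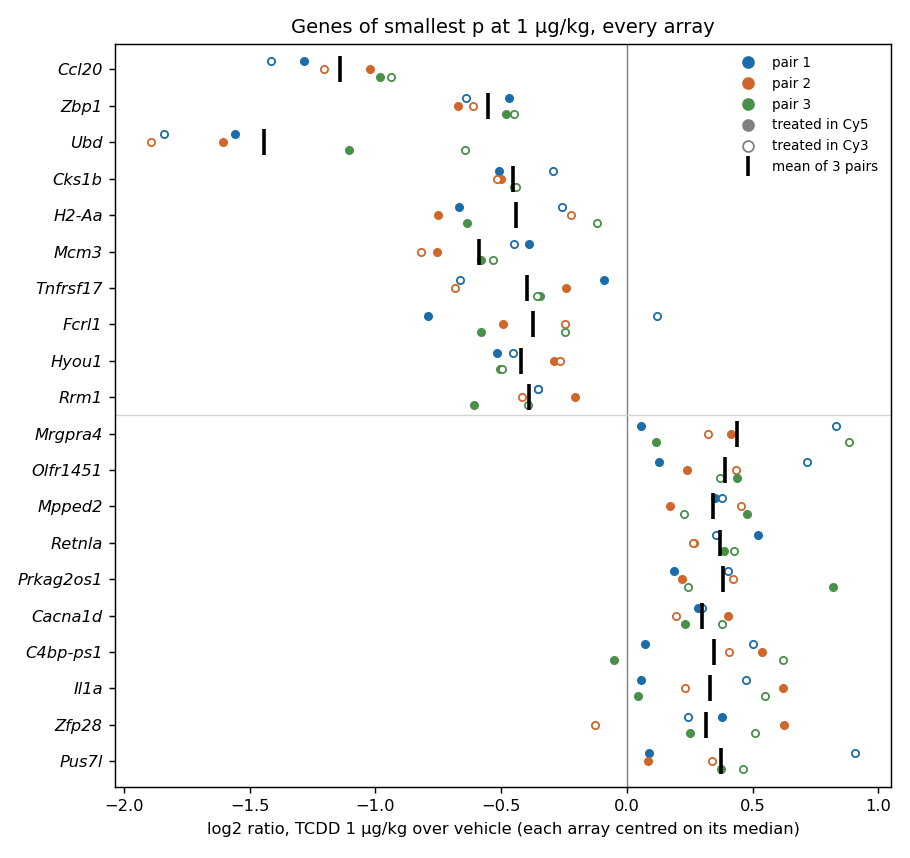
Log2 ratio of TCDD 1 µg/kg over vehicle (x axis) on every array for the 10 genes below and the 10 genes above vehicle with the smallest p and 1 sign in all pairs; filled points have the treated animal in Cy5, open points in Cy3, and bars are means of 3 pairs. Ccl20 and Ubd lie furthest from 0, at means of -1.14 and -1.44, and the genes above vehicle have means between 0.30 and 0.44.

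The 10 genes named for small p above vehicle had means between 0.30 and 0.44. Mrgpra4, a Mas-related G protein-coupled receptor, had ratios of 0.44, 0.37 and 0.50 and the largest mean of the 10 named genes on that side, 0.44 ± 0.07 (adjusted p = 0.84). Its dyes disagreed in pairs 1 and 3, where the Cy5 arrays read 0.06 and 0.11 and the Cy3 arrays 0.83 and 0.88. Retnla, a secreted resistin-like protein that type 2 immune signals induce, had ratios of 0.44, 0.26 and 0.41, and Il1a, the interleukin-1 alpha cytokine, had 0.26, 0.43 and 0.30. Cacna1d, a voltage-gated calcium channel subunit, had 0.29, 0.30 and 0.30, the narrowest spread of the 10 genes, but these average 2 probes that differ, at 0.59, 0.43 and 0.42 and at -0.01, 0.17 and 0.19. Further probes of Cacna1d, left out for missing values, read -0.11 and -0.30 in pairs 2 and 3 and, for another, -0.30 in pair 3. The remaining 6 were Olfr1451, Mpped2, Prkag2os1, C4bp-ps1, Zfp28 and Pus7l, with means from 0.31 to 0.39. Left-out probes also read below 0 for Zfp28 (-0.07 and -0.37 in pairs 2 and 3) and Pus7l (-0.22 and -0.15 in pairs 1 and 2). One sign on all 6 arrays was held by 8 of the 10 genes above and 9 of the 10 below vehicle, against 2.12% and 2.71% of all genes, but these genes were picked by small p and the shares are a description.

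No gene of the AHR battery passed the test at this dose. Of 17 listed genes 14 were measured, 0 were called, and 6 lay above and 8 below vehicle, with a median of -0.01 beside 0.0007 for all genes. Without centring the median of the battery was 0.05. Cyp1a1 had ratios of -0.92, 1.08 and -0.09. In pair 1 both arrays were low (-0.90 and -0.95) and in pair 2 both were high (1.18 and 0.98), so the pairs opposed each other with both dyes in accord. The mean of Cyp1a1 was 0.02 ± 1.01 (adjusted p = 0.99). Ahrr, the receptor's repressor, had ratios of -0.05, 0.40 and -0.08 and a mean of 0.09 ± 0.27, and the arrays behind its 0.40 read 0.90 and -0.09. Tiparp, an ADP-ribosyltransferase that promotes loss of AHR, had -0.03, 0.22 and -0.42 and a mean of -0.08 ± 0.32. For all 3 genes pair 2 was the highest.

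The means of the 14 battery genes lay between -0.22 and 0.15. Cyp1a2, a P450 best known from liver, had -0.27, 0.17 and 0.08. Cyp1b1, the third member of that P450 family, lay above 0 in every pair, at 0.05, 0.22 and 0.15. Its dyes opposed each other in pairs 1 and 2, with arrays at 0.18 and -0.09 and at -0.14 and 0.58. An unadjusted p under 0.05 was reached by 2 of the 14 members, both below vehicle (14.3% beside 3.1% of all genes). Nqo1, a quinone reductase, had a mean of -0.22 ± 0.17 and Xdh, xanthine dehydrogenase, -0.18 ± 0.11, each with an adjusted p of 0.84. The dyes of Xdh opposed each other in every pair, with Cy5 arrays at -0.55, -0.66 and -0.39 and Cy3 arrays at 0.13, 0.11 and 0.27. Left uncentred, neither Nqo1 nor Xdh kept a p under 0.05, and 2 members above vehicle had one. Without pair 1 there was 1 member above and 0 below at that threshold, and the median was 0.06. Aldh3a1 and Ugt1a6a were not analysed here.

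**Figure D2:**
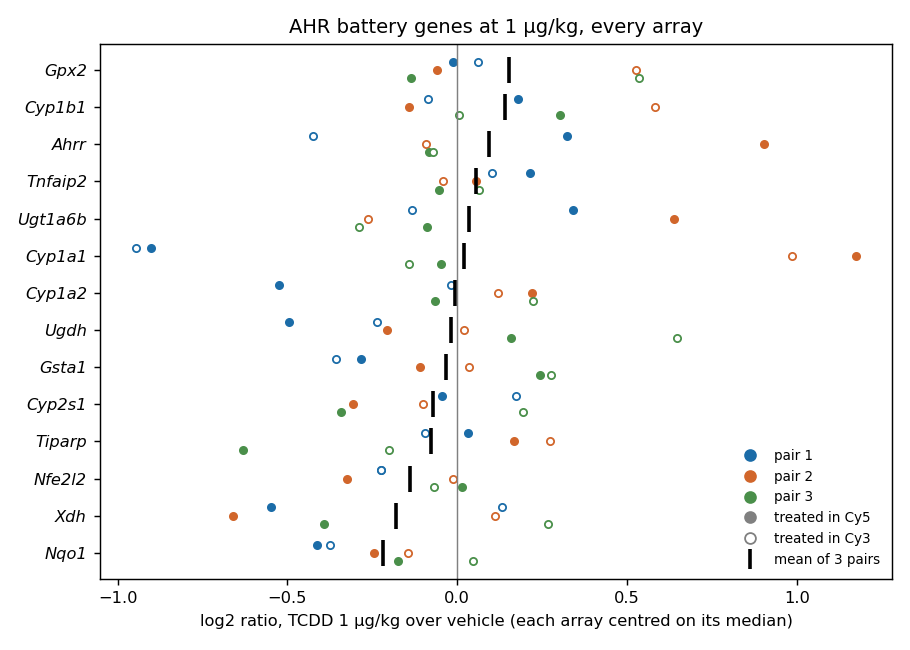
Log2 ratio of TCDD 1 µg/kg over vehicle (x axis) on every array for the 14 measured AHR battery genes; filled points have the treated animal in Cy5, open points in Cy3, and bars are means of 3 pairs. Cyp1a1 spans -0.95 to 1.18 between animal pairs while its mean is 0.02, and every mean lies between -0.22 and 0.15.

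Genes known to differ from vehicle at the higher doses of this series, a list chosen from earlier results of these data, gave no call at 1 µg/kg. Of its 30 genes 17 lay below and 13 above vehicle, and 7 had an unadjusted p under 0.05, 6 of them below and 1 above, beside 3.1% and 1.96% of all genes. Without centring 3 were above and 2 below at that threshold, after quantile normalization 2 and 2, and without pair 1 there were 2 above and 5 below. Jchain, which joins the subunits of secreted IgA and IgM, had ratios of -1.02, -0.39 and -0.27 and a mean of -0.56 ± 0.40 (adjusted p = 0.84). Acta1, skeletal muscle actin, was the 1 of these 7 above vehicle, with 0.77 and 0.80 in pairs 1 and 2 and -0.08 in pair 3. Pou3f1, a POU-domain transcription factor, had -0.06, 0.22 and 0.00, with single arrays from -0.08 to 0.36.

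Genes of cell division mostly lay below vehicle. Of 22 measured genes of the cell cycle and DNA replication, 0 were called, 21 had a mean below 0 and 10 had an unadjusted p under 0.05 on that side, or 45.5% beside 3.1% of all genes. In all 3 pairs 16 of them were below 0, or 72.7% beside 14.1% of all genes. Their median was -0.16, and the pair medians were -0.15, -0.20 and -0.10. Rrm2, the small subunit of ribonucleotide reductase, had ratios of -0.75, -0.32 and -0.35. Ccnd1, cyclin D1, had -0.32, -0.27 and -0.32. Mcm4, another helicase subunit, had -0.22, -0.59 and -0.33, Top2a, topoisomerase II alpha, -0.40, -0.20 and -0.28, and Mki67, the proliferation marker Ki-67, -0.17, -0.39 and -0.20. Cdk1 was the member above 0, at 0.04 ± 0.17, and Bub1 and Pcna had means of -0.01 and -0.07. The count of 10 became 8 without pair 1, 5 without pair 2, 8 without pair 3 and 8 without centring. Olfm4, a marker of crypt stem cells, had ratios of -0.18, -0.61 and -0.46 (adjusted p = 0.84), while the 13 stem cell and Wnt genes measured had a median of -0.04, or 0.02 without centring.

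Plasma cell genes were below vehicle in all 12 measured cases, with a median of -0.19 and pair medians of -0.20, -0.23 and -0.13. Of the 12, 5 (41.7% beside 3.1% of all genes) had an unadjusted p under 0.05 below vehicle, and 0 were called. Besides Tnfrsf17 and Jchain these were Mzb1, a chaperone of antibody secretion, at -0.23, -0.22 and -0.14, Sec11c, a signal peptidase subunit, at -0.43, -0.23 and -0.05, and Xbp1, the transcription factor of secretory cells, at -0.23, -0.06 and -0.31. Ighm, the IgM heavy chain, had -0.14, -0.26 and -0.04. The count of 5 became 3 without pair 1, 3 without pair 2, 4 without pair 3 and 2 without centring, when 10 of the 12 were below 0.

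B cell genes differed between pairs. The 13 measured genes had a median of -0.36, but pair medians of 0.05, -0.47 and -0.25. Cd74, given below, belongs to both this list and the MHC class II list, and its mean of -0.36 is the median here. Cd79b, a signalling chain of the B cell receptor, had 0.07, -2.04 and -0.88, and its partner Cd79a 0.16, 0.12 and 0.14. Tnfrsf13c, the BAFF receptor, had -0.21, -1.79 and -0.80, Ms4a1, the CD20 antigen, -0.15, -1.42 and -0.52, and Ltb, lymphotoxin beta, 0.13, -1.25 and -0.76. Pair 2 was the lowest and pair 1 the highest for each of these, although the 3 ratios of Cd79a lie close together. Cxcl13, the chemokine that attracts B cells to follicles, also had its lowest ratio in pair 2, at -0.73, -2.20 and -0.47, and was singled out after its values were seen. Cxcr5, the receptor of that chemokine, had -0.29, -0.69 and -0.54 (adjusted p = 0.84). Of the 13 genes 5 (38.5% beside 3.1% of all genes) had an unadjusted p under 0.05 below vehicle. Without pair 1 there were 7 such genes, without pair 2 there were 4 and without pair 3 there were 3.

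Antigen presentation genes were below vehicle too. All 9 measured MHC class II genes had means below 0, 4 of them (44.4% beside 3.1% of all genes) with an unadjusted p under 0.05. The median was -0.20, with pair medians of -0.12, -0.22 and -0.38. Cd74, the invariant chain, had -0.17, -0.47 and -0.44, and H2-Ab1, a class II beta chain, -0.14, -0.22 and -0.53. Ciita, the master regulator of these genes, had 0.27, -0.16 and -0.55, so its pairs did not share a sign. The count was 7 without pair 1, 2 without pair 2 and 3 without pair 3. The list median was -0.39 over the Cy5 arrays and -0.04 over the Cy3 arrays. T cell genes (21 measured) had a median of -0.01, and macrophage and dendritic cell genes (17 measured) of -0.003, which were 0.05 and 0.06 without centring.

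Interferon response and MHC class I genes were below vehicle in 21 of 23 measured cases, with a median of -0.22. The pairs were unequal here as well, with medians of -0.41, -0.19 and 0.01. Ifit3, an interferon-induced antiviral protein, was below 0 in every pair, at -0.77, -0.45 and -0.37 (adjusted p = 0.84). Psmb9, a subunit of the immunoproteasome, had -0.34, -0.36 and -0.25, and Tap2, which carries peptides to MHC class I, had -0.25, -0.34 and -0.31. Other genes were lowest in pair 1 and nearer to 0 in the other pairs. Usp18, which removes ISG15 from proteins, had -1.55, -0.10 and -0.15, Isg15 itself -1.47, -0.21 and 0.04, and Oas1a, an activator of antiviral RNA decay, -1.16, -0.15 and -0.06. Of the 23 genes 5 (21.7% beside 3.1% of all genes) had an unadjusted p under 0.05 below vehicle. This count was 3 without pair 1, 3 without pair 2 and 12 without pair 3. On the Cy5 arrays alone it was 14 and on the Cy3 arrays alone 3. Among all 14983 genes the count below vehicle also rose on single dyes, from 465 to 1102 on Cy5 and 1037 on Cy3 arrays.

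Across these 5 lists (cell division, plasma cell, B cell, MHC class II, interferon) the medians were also below 0 without centring and after quantile normalization, between -0.33 and -0.09.

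**Figure D3:**
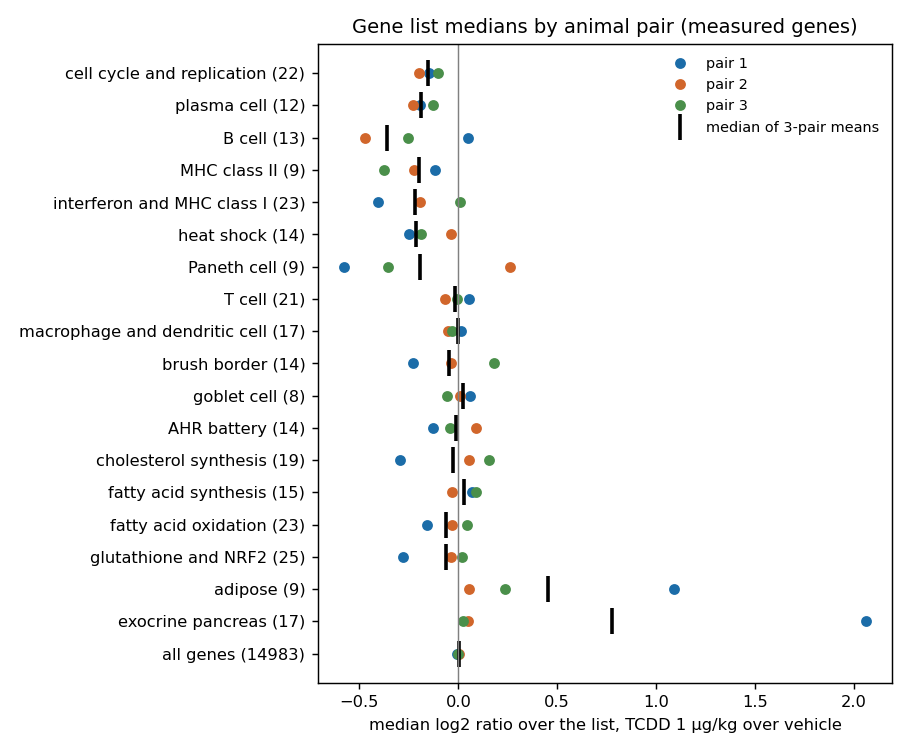
Median log2 ratio of TCDD 1 µg/kg over vehicle (x axis) over the measured genes of 18 lists and over all genes, for each of the 3 animal pairs (points) and for the means of 3 pairs (bars); numbers in brackets are measured genes. Cell division and plasma cell genes have 3 pair medians below 0 close together, B cell genes lie near 0 in pair 1, and exocrine pancreas genes reach 2.06 in pair 1 and stay near 0 in the other pairs.

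Markers of the exocrine pancreas and of adipose tissue were high in pair 1, while the liver and muscle lists had medians of 0.08 and 0.07 in that pair. The stroma list was also highest in pair 1, with pair medians of 0.25, -0.11 and 0.005. All 17 measured genes of the exocrine pancreas, the digestive enzyme gland beside the small intestine, had means above 0 with a median of 0.78. The pair medians were 2.06, 0.05 and 0.02. Amy2a5, pancreatic amylase, had 4.53, -0.18 and 0.16, and Cpb1, carboxypeptidase B1, had 4.32, -0.05 and 0.06. Ratios of 4-fold or more above vehicle on both arrays were held by 15 genes in pair 1, 0 in pair 2 and 0 in pair 3. The 9 measured adipose genes had pair medians of 1.09, 0.06 and 0.23. Adipoq, the fat cell hormone adiponectin, had 2.94, -0.01 and 0.60. Without pair 1, 5 of the 17 pancreatic genes were below 0 and the median was 0.04. Their part in the other results was not tested.

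Several genes of lipid synthesis were also highest in pair 1. Fasn, fatty acid synthase, had 1.41, 0.08 and 0.37, Thrsp, a lipogenic regulator that fat and liver also express, 1.93, 0.05 and 0.46, and Scd1, a fatty acid desaturase, 2.57, -0.12 and -0.25. The 15 fatty acid synthesis genes measured had a median of 0.03 and 0 with an unadjusted p under 0.05, or 5 above vehicle without centring. The 19 cholesterol synthesis genes had pair medians of -0.29, 0.05 and 0.15, again with 0 at that threshold. Of 23 fatty acid oxidation genes 17 lay below vehicle, with a median of -0.06 and 1 gene, Cpt2 of carnitine-linked import, at that threshold, but 12 below and 0 at it without centring. Among the 18 fat absorption genes measured, Mgll, monoacylglycerol lipase, had 0.92, 0.09 and 0.25 and was the 1 gene with an unadjusted p under 0.05, while 4 genes, all above vehicle, had one without centring.

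Further genes below vehicle came from the bile acid, xenobiotic, glutathione, heat shock and Paneth lists. The bile acid list, which holds Cyp3a11, had 9 of 16 genes below 0 and a median of -0.03. Cyp3a11, a P450 of drug and bile acid oxidation, had -1.08, -0.48 and -0.45, and Cyp2c55, a P450 of arachidonic acid oxidation, had -0.82, -0.86 and -0.22. Gstm1, a glutathione S-transferase, had -0.75, -0.39 and -0.32. The heat shock list had 13 of 14 genes below 0 and 4 (28.6% beside 3.1% of all genes) with an unadjusted p under 0.05, or 10 and 2 without centring. Those 4 included the mitochondrial chaperonin pair Hspe1 (-0.56, -0.24 and -0.26) and Hspd1 (-0.60, -0.19 and -0.21). Hsph1, a cytosolic chaperone cofactor, had -1.67, 0.79 and -1.14, so pair 2 opposed the others. Defa21, a Paneth cell defensin, showed the same order with -1.73, 0.74 and -0.83, as did the Paneth list, whose pair medians were -0.58, 0.26 and -0.36. Adjusted p was 0.84 for each of these genes except Hsph1 and Defa21, where it was 0.85 and 0.85.

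The ratios at 1 µg/kg were then set against those at 0.3 µg/kg within the same vehicle animal, which cancels the vehicle RNA and compares treated animals. Of 13644 genes 0 (0%) differed at an adjusted p under 0.05 in limma, and 792 (5.8%) at an unadjusted one, 387 higher (2.84%) and 405 lower (2.97%) at 1 µg/kg. With all 24 pairs in 1 fit and the vehicle animal as a replicate block, 24 genes were called, 21 higher and 3 lower at 1 µg/kg, and without that block 1. Without pair 2 there was 1 call. Taf15, an RNA-binding protein of the FET family, gave the smallest p, with differences of 1.44, 1.45 and 0.99 (adjusted p = 0.42). Its ratios at 0.3 µg/kg lay between -1.12 and -0.83, on 1 probe. At 1 µg/kg that probe had a mean of 0.30, and another probe of the gene had -0.19. Cyp3a11 differed by -1.25, -0.62 and -0.84 (adjusted p = 0.60), from a mean of 0.24 to -0.67. Jchain differed by -0.47, -0.67 and -0.67 (adjusted p = 0.69), from 0.04 to -0.56. Cell division genes were about as low at 0.3 as at 1 µg/kg. Of 21 measured, 14 had differences above 0, beside 6716 of all 13644 genes. The median difference was 0.03, and 1 had an unadjusted p under 0.05, lower at 1 µg/kg. Mcm3, Cks1b, Rrm1 and Ccnd1 had means of -0.51, -0.59, -0.37 and -0.53 at 0.3 µg/kg, beside -0.59, -0.45, -0.39 and -0.30 at 1 µg/kg.

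Between 1 and 3 µg/kg Cyp1a1 had the smallest p of all genes. Its ratios at 3 µg/kg were 0.99, 2.61 and 2.56, each above the ratio at 1 µg/kg with the same vehicle animal. The differences of 1.91, 1.53 and 2.65 had a mean of 2.03, but the adjusted p was 0.98. Of 14260 genes 0 (0%) were called in limma, and 631 (4.42%) had an unadjusted p under 0.05, 367 higher (2.57%) and 264 lower (1.85%) at 3 µg/kg. Pou3f1 differed by 0.43, 1.39 and 1.01. Ahrr had no value on some arrays at 3 µg/kg and was not tested at this step, and Tiparp had means of -0.08 at 1 and -0.02 at 3 µg/kg.

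Most interferon genes had higher ratios at 3 than at 1 µg/kg. Of 23 measured, 15 had an unadjusted p under 0.05 with the higher value at 3 µg/kg (2.57% of all genes did), 21 were above 0 in the difference, and the median was 0.35 beside 0.01 for all genes. The pair medians were 0.40, 0.25 and 0.43. Ifit1, an antiviral protein that binds foreign RNA caps, differed by 1.29, 0.71 and 1.07. Usp18 differed by 1.27, 0.47 and 0.94, and Ifit3 by 0.49, 0.41 and 0.93. Zbp1 differed by 0.31, 0.87 and 0.68 and Ccl20 by 0.23, 0.87 and 0.80. All 9 MHC class II genes and 19 of 20 cell division genes had differences above 0, beside 7940 of all 14260 genes. An unadjusted p under 0.05 with the higher value at 3 µg/kg was reached by 4 and 6 of them, beside 2.57% of all genes. The pair medians were 0.10, 0.46 and 0.20 for MHC class II and 0.35, 0.15 and -0.005 for cell division, so pair 3 of the latter lay near 0. Mpped2, a metallophosphoesterase, and Me1, the NADP-linked malic enzyme, were lower at 3 µg/kg, by means of -0.41 and -0.45. Each of these genes had an adjusted p of 0.98. The treated animals at 1 µg/kg enter both this difference and the comparison with vehicle, so a low ratio there and a higher one here are not independent, and the same holds at 30 µg/kg.

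**Figure D4:**
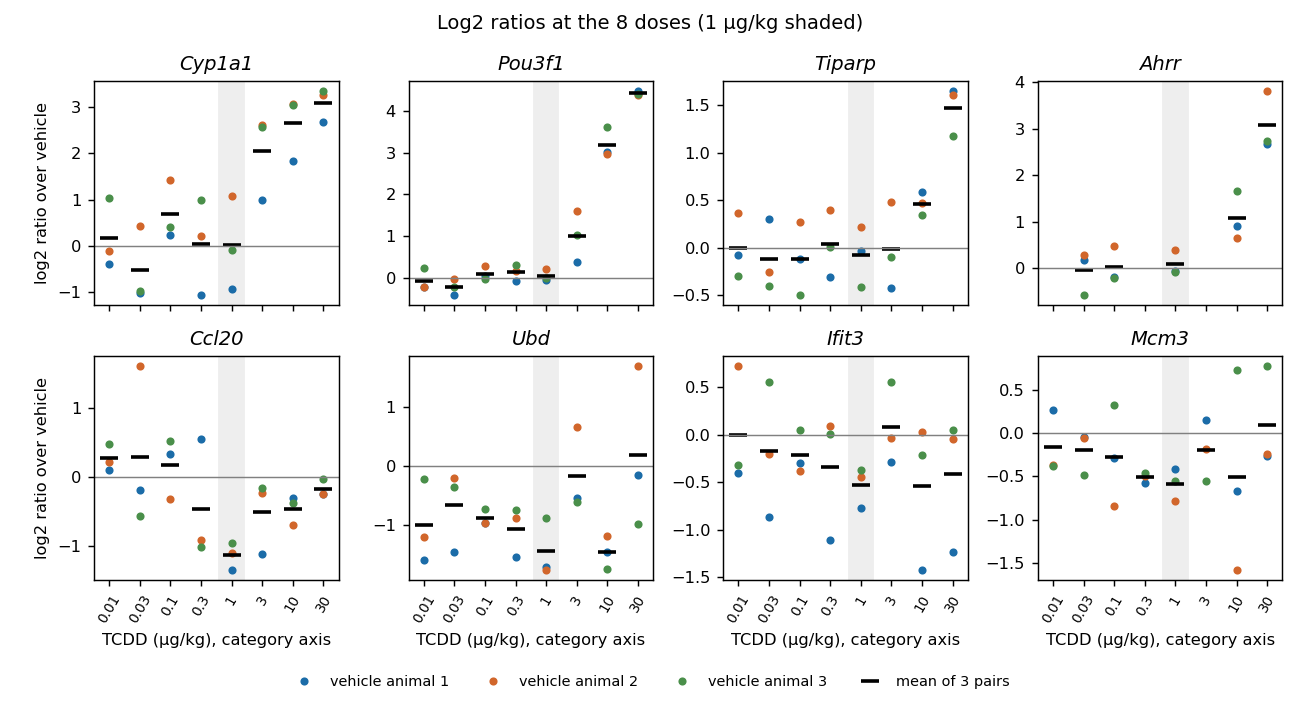
Log2 ratio of treated over vehicle (y axis) for 8 genes at the 8 TCDD doses (x axis, categories in µg/kg), with 1 point per animal pair coloured by vehicle animal and bars for the mean of 3 pairs; a dose without points was not measured on all 6 of its arrays. At 1 µg/kg, shaded, Cyp1a1 spans -0.92 to 1.08 and Pou3f1 -0.06 to 0.22, while the 3 ratios of Ccl20 lie between -1.35 and -0.96; ratios of 1 vehicle animal at different doses are not independent.

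The ratios of the named genes across doses, given as a description, did not all follow dose. Cyp1a1 had means of 0.18, -0.52, 0.69, 0.05, 0.02, 2.05, 2.64 and 3.08 from 0.01 to 30 µg/kg, and at the lowest 5 doses its pairs fell on both sides of 0 except at 0.1 µg/kg. Ccl20 had means of 0.27, 0.29, 0.18, -0.46, -1.14, -0.51, -0.46 and -0.17, and 1 µg/kg was the lowest of the 8. Ubd was below 0 on average at every dose up to 10 µg/kg, from -0.16 at 3 to -1.46 at 10 µg/kg, so its value at 1 µg/kg was not the lowest. H2-Aa had means from -0.78 to -0.03, with -0.44 at 1 µg/kg. The 3 vehicle animals recur at every dose, so these means are not independent.

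At 30 µg/kg against 1 µg/kg, 6 of 14188 genes (0.0423%) were called in limma, all higher at 30 µg/kg, and 1227 (8.65%) had an unadjusted p under 0.05, 589 higher (4.15%) and 638 lower (4.5%). Pou3f1 rose most, with differences of 4.54, 4.17 and 4.41 and a mean of 4.37 ± 0.18 (SD, n = 3; adjusted p = 0.00022). Ahrr rose by 2.72, 3.40 and 2.82 (mean 2.98, adjusted p = 0.0070), and Tiparp by 1.68, 1.38 and 1.59 (mean 1.55, adjusted p = 0.013). Tmigd1, a membrane protein of the intestinal and renal epithelium, rose by 2.91, 2.25 and 1.93 (mean 2.36, adjusted p = 0.040). Its ratios at 1 µg/kg were -1.13, 0.74 and -0.59, on both sides of 0 and far apart. Wdr11, a WD-repeat protein, rose by 1.58, 1.87 and 1.90 (adjusted p = 0.0098). Gabbr1, a GABA-B receptor subunit, rose by 1.72, 1.60 and 1.70 (adjusted p = 0.0070), but of its 3 probes 1 differed by 4.89 and the others by 0.17 and -0.04.

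The number called at this step varied with the processing. Uncentred arrays gave 11 calls, 7 higher and 4 lower, beside the 6 and 0 of the main test. With all 24 pairs in the fit and the vehicle animal as a replicate block there were 118, 68 higher and 50 lower. Leaving out pair 2 gave 35 calls, 23 higher and 12 lower. Pou3f1 and Gabbr1 were called under all 12 alternatives, Wdr11 under 11, Ahrr under 8 of 9 and Tiparp and Tmigd1 under 9 of 12.

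Other AHR-related genes came close to the threshold. Cyp1a1 differed by 3.59, 2.17 and 3.43 (mean 3.06, adjusted p = 0.052), and pair 2, highest at 1 µg/kg, gave the smallest difference. Cyp1a2 differed by 2.16, 2.11 and 1.26 (adjusted p = 0.058) and Ahr, the receptor itself, by 0.83, 0.90 and 0.70 (adjusted p = 0.073). Of 14 battery genes 7 had an unadjusted p under 0.05 with the higher value at 30 µg/kg, against 4.15% of all genes. Ccl20 had higher ratios at 30 µg/kg, by 1.10, 0.86 and 0.94 (adjusted p = 0.054). Adh4, an alcohol dehydrogenase that acts on retinol, differed by -1.36, -1.08 and -0.98 (adjusted p = 0.054). All 22 cell division genes had differences above 0, beside 7040 of all 14188 genes. Of the 22, 11 had an unadjusted p under 0.05, beside 4.15% of all genes on that side, and the pair medians were 0.09, 0.29 and 0.62.

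**Figure D5:**
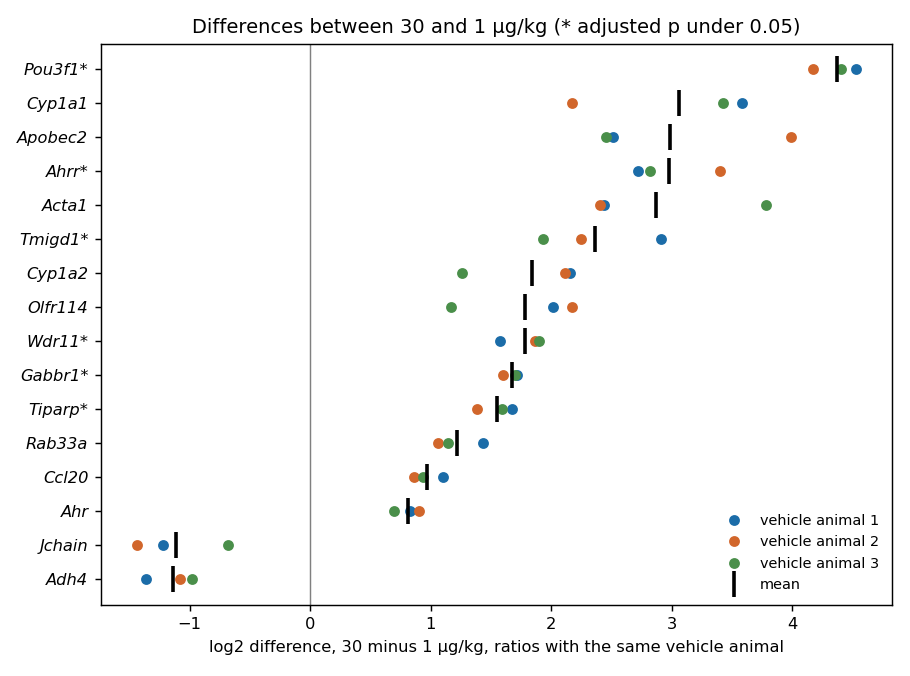
Difference of the log2 ratios at 30 and 1 µg/kg within the same vehicle animal (x axis) for 16 named genes, with 1 point per vehicle animal and bars for the mean; an asterisk marks an adjusted p under 0.05. The 3 differences of Pou3f1 lie between 4.17 and 4.54, those of Cyp1a1 between 2.17 and 3.59, and Adh4 and Jchain lie below 0.

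Promoters are shown for the battery genes Cyp1a1, Ahrr and Tiparp, which lay near 0 on average at 1 µg/kg and were higher at 30 µg/kg, and for Ccl20, the gene of smallest p at 1 µg/kg. Each runs from 250 bases before to 50 bases after the RefSeq start site (build GRCm38.p6), 5′ to 3′ on the gene's strand. Capitals mark GCGTG, the core that AHR and ARNT bind, or its reverse complement CACGC.
Cyp1a1 (chr9:57697363-57697662, plus strand): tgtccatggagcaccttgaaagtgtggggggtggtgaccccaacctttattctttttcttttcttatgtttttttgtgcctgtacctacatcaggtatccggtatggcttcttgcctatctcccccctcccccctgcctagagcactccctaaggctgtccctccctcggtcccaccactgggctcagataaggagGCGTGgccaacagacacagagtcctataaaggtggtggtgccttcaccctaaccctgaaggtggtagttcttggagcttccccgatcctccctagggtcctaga
Ahrr (chr13:74292282-74292581, minus strand): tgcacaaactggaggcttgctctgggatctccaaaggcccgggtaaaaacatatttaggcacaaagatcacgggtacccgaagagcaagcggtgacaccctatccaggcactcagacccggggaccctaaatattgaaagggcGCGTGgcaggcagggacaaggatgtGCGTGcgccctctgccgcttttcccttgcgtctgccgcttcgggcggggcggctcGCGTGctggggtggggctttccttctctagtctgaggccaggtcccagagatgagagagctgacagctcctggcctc
Tiparp (chr3:65528197-65528496, plus strand): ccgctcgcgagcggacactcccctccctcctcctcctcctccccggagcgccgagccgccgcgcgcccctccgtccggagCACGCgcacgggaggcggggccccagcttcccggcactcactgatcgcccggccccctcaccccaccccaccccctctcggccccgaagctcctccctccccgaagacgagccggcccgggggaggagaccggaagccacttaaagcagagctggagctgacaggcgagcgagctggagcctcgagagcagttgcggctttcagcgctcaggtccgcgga
Ccl20 (chr1:83116516-83116815, plus strand): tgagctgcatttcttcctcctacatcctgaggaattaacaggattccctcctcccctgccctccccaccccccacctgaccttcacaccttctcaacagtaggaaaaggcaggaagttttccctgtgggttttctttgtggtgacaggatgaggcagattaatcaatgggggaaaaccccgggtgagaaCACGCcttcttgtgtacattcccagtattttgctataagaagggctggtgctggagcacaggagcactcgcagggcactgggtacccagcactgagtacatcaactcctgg
The Cyp1a1 window holds the core once, its first base at position -54 from the start site, and that of Ahrr 3 times, at -107, -82 and -27. In Tiparp the match begins at -170 and in Ccl20 at -61. GCGTG or CACGC was found in 32.4% of all 32851 promoters of this length, so its presence in Ccl20 is a description only.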

How the data were processed

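The authors deposited 1 table of log ratios, read here as log2 values of treated over vehicle. Per the labels' protocols, dye-swapped 2-colour Agilent arrays were used. Scanner software, background correction, normalization, log base and sign are not given in the sources used here. The sign rests on Cyp1a1, above 0 on 12 of 12 arrays at 10 and 30 µg/kg, and is likely rather than stated. Of 41085 probes, 26270 had values on all 6 arrays. Of these, 288 at a value that 200 or more probes of an array share were left out, since such a value cannot measure each gene, which left 25982. The array annotation listed 32600 probes, 32555 with 1 symbol, 45 with several and 8485 of the table's probes unlisted; 32416 symbols were matched by gene identifier to a RefSeq table of GRCm38.p6. Probes of a gene were averaged, giving 14983 genes, 9920 of them from 1 probe. The number of arrays limits the precision.

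Arrays were centred on their median, the 2 arrays of a pair averaged, and the mean of 3 pairs tested against 0 with limma 3.58.1 (R 4.3.3; lmFit, eBayes, two-sided). P-values were Benjamini-Hochberg adjusted over all genes, with calls at an adjusted p under 0.05. Doses were compared by differences of ratios with the same vehicle animal. Pairing by vehicle animal is in the labels. Deviations from the mean of the 3 pairs of a dose correlated at a median of 0.34 (-0.09 to 0.55) with a shared vehicle animal. For different animals the median was -0.19, but 3 deviations that sum to 0 push this value below 0, so it is no separate comparison. The labels name separate animals.

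Named genes are the 10 of smallest p each way with 1 sign in all pairs, the measured AHR battery and higher-dose list, the 2 of smallest p in each of the other lists, and up to 5 per direction for each dose difference (or the smallest p), without predicted or clone-named genes. Other members named were chosen after their values were seen. The arrays, members and lists were chosen with earlier results of these data known. Alternatives covered centring, quantile normalization, single dyes, shared values, probe sets, joint fits, robust variances and each pair left out.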

Additional observations from a re-analysis of the deposited data

Results flagged for a closer look

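The 6 genes called between 30 and 1 µg/kg drew attention because the difference between doses itself passed the test, with mean log2 differences of 4.37 for Pou3f1, 2.98 for Ahrr, 2.36 for Tmigd1, 1.78 for Wdr11, 1.67 for Gabbr1 and 1.55 for Tiparp. A probe without a gene symbol in the annotation, outside the gene tests, was also called in a test of every probe, with a mean difference of 2.80 (limma adjusted p = 0.017). In that test a probe of Wfikkn2 differed by 3.26 (adjusted p = 0.0016), a gene whose mean over its probes was not called.

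Several named genes had 1 sign in all 3 pairs at 1 µg/kg and the opposite sign in all 3 pairs at another dose. Olfr1276 (for 0.3 µg/kg) and Mpped2 (for 3 µg/kg) were named for the smallest p in that difference, so their reversal there is no separate result. At 1 µg/kg 1 sign in all 3 pairs was held by 13.7% of all genes above and 14.1% below vehicle. The share of all genes that reversed is not given here. At 0.3 µg/kg the mean log2 ratios were -0.39 for Gpx2, an intestinal glutathione peroxidase, 0.27 for Slc27a2, a fatty acid transporter, and -0.091 for Tm7sf2 of cholesterol synthesis. Also at 0.3 µg/kg, Cyp3a11 had 0.24, Adgre1, a macrophage marker, 0.13, and the olfactory receptor gene Olfr1276 0.58. At 1 µg/kg the ratios of Olfr1276 were -0.11, -0.14 and -0.01. At 3 µg/kg Mpped2 had -0.062. At 30 µg/kg the heme synthesis enzymes Alas1 and Cpox had 0.81 and 0.72, beside -0.25 and -0.30 at 1 µg/kg. Pair 3 of Alas1 at 1 µg/kg had -0.04, from arrays of -0.44 and 0.35. The other genes at 30 µg/kg were Gzma, granzyme A, at 0.33, Apobec2, a muscle-expressed deaminase family member, at 2.84, Pdgfrb of stromal cells at -0.68 and Olfr1276 at 0.41. The difference between doses was tested for each and was not called, with adjusted p from 0.058 (Apobec2 at 30 µg/kg) to 0.98 (Mpped2 at 3 µg/kg).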

How the results depend on the processing

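At 1 µg/kg against vehicle the count of called genes was 0 under every alternative run except 1 dye orientation: Cy3-labelled treated RNA alone gave 1, below vehicle; with the vehicle animal as a replicate block it was 0, and with each pair left out 0 to 0. All 20 named genes of smallest p kept their sign under each alternative in which they were measured, 9 or 12 of them. They were picked for 1 sign in all 3 pairs, so leaving out a pair could not turn it, and the kept sign is no separate support. Ccl20 ranged from -1.23 to -1.04 with a smallest adjusted p of 0.061. Between 1 and 0.3 µg/kg the count was 24 with the replicate block, 1 in the joint fit without it and 0 to 1 with a pair left out. Between 1 and 3 µg/kg it was 0 under every alternative, block included. Between 1 and 30 µg/kg it was 11 uncentred, 3 after quantile normalization, 10 on Cy5 and 13 on Cy3 arrays alone, 53 in the joint fit without a vehicle term, 118 in the joint fit with the replicate block, and 5 to 35 with a pair left out. The cause of these shifts was not tested. Adjusted p was 0.085 for Ahrr, 0.082 for Tmigd1, 0.088 for Wdr11 and 0.057 for Tiparp after quantile normalization, 0.070 and 0.13 for Tmigd1 with probes complete on all 48 arrays and in the joint fit without a vehicle term, and 0.054 and 0.064 for Tiparp without pair 1 and without pair 3. Centring turned the split of unadjusted p under 0.05 at 1 µg/kg from 294 above and 465 below to 1198 and 161 uncentred, and that of the AHR battery from 0 and 2 to 2 and 0, with its median going from -0.01 to 0.05. Medians near 0 of other lists changed sign uncentred as well, among them sterol transport (-0.02 to 0.04), stem cell and Wnt (-0.04 to 0.02), T cell (-0.01 to 0.05) and macrophage (-0.003 to 0.06). Without intensities, spots near background were kept, and their share is unknown.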
